A study of Mus musculus with 50 samples.

Results

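In the liver lobule, hepatocytes differ in gene expression along the axis from the portal tract, which carries the bile ducts, to the central vein, a pattern called zonation. Bile ducts are lined by biliary epithelial cells (cholangiocytes), which express keratins, the matrix protein osteopontin (Spp1) and the transcription factor Sox9. Hepatocytes beside the ducts are periportal, whereas the hepatocytes around the central vein express glutamine synthetase (Glul). Distance to a biliary cell was therefore used here as a measured position, and hepatocytes near biliary cells were compared to hepatocytes far from them in mouse livers with and without the histone chaperone HIRA.

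CosMx in situ imaging counts single transcripts of a fixed panel, here 1000 genes, inside segmented cells of a tissue section. Of 52132 segmented cells, 20578 were hepatocyte-sized, with an outline of 15000 to 50000 square pixels and at least 20 gene counts. Biliary cells were smaller than 15000 square pixels, held at least 4 counts of Spp1, Sox9, Krt19, Krt7, Epcam, Anxa4 and Cdh1 together, and these 7 genes made up at least 4% of their gene counts. This rule gave 373 biliary cells. Within each of 6 tissue areas, the hepatocyte-sized cells were ordered by the distance to the nearest biliary cell and divided into 3 equal classes. The nearest class is called near (6856 cells) and the farthest class far (6856 cells), so that 13712 cells were compared and the 6866 cells between them were left out. The measured counts of the 7 genes chose the biliary cells, so their levels are given below as descriptions. These genes stayed in the fit over all genes, where a call is counted but not used.

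The livers came from C57BL/6 mice. HIRA KO mice carried HIRA fl/fl alleles, while control mice were wildtype, and both groups were injected with the AAV8-TBG-Cre virus when 6 months old and collected 12 months later, at 18 months, so Cre exposure was common to both. TBG is a promoter active in hepatocytes, so biliary and other cells were not targeted directly. From lineage tracing, the paper concludes that hepatocytes without HIRA turn into cholangiocytes. Some biliary cells of the HIRA KO areas may therefore descend from targeted hepatocytes, and their origin was not tested here. All 50 fields of view, 25 per group, lay on 1 slide of median lobe sections, and each genotype filled 3 tissue areas. For this imaging the paper states 3 biological replicates and n = 3 per group. The labels give no mouse for a field of view, so each area served as 1 replicate and p-values measure the spread between areas, whether or not each area is a separate mouse.

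The areas held 741485 to 1569254 gene counts, and the near or far class of an area held 140125 to 315114. Hira itself was not on the panel, so the deletion could not be checked in these counts. The highest of 10 negative probes, which match no transcript, had 2663 counts over all hepatocyte-sized cells, and 334 of the 1000 genes were at or below it. Of the 7 rule genes, Sox9, Anxa4 and Cdh1 were above it, while Spp1, with 2452 counts, Krt19, Krt7 and Epcam were not.

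Both labels were checked against genes that the rule did not use. Clu (clusterin, a secreted chaperone that biliary cells express strongly) averaged 43508 ± 9018 counts per 1000000 gene counts (CPM) in the biliary cells (SD, n = 6 areas), compared to 5102 ± 1727 in the other small cells and 3375 ± 851 in hepatocyte-sized cells. The plasma carrier genes Ttr, Gc and Apoa1 averaged 37164, 8138 and 4265 CPM in hepatocyte-sized cells, compared to 18480, 4317 and 2202 in other small cells and 10929, 2625 and 1101 in biliary cells. The other small cells thus also carried hepatocyte transcripts, and Apoe did not separate the classes (12708 in hepatocyte-sized and 12925 in other small cells).

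Biliary cells were few and unevenly placed. The control areas held 57, 16 and 83 of them and the HIRA KO areas 82, 95 and 40. The near class therefore ended at 1008, 1750 and 890 pixels in the control areas and at 637, 635 and 1101 pixels in the HIRA KO areas. The far class began at 1818, 5232 and 1698 pixels in the controls and at 1194, 1257 and 2213 pixels in HIRA KO. The size of a pixel is not given in the sources used here. Near and far are thus positions within an area and not fixed distances, and control area 2 stood apart: none of its far cells had their nearest biliary cell in their own field of view, whereas in the other 5 areas 27.5% to 89.2% had. A biliary cell just outside an imaged field cannot be seen, and 6 of the 50 fields held none. The rule also has edges: 106 of the 373 biliary cells had exactly 4 counts, 151 small cells missed by 1 count, and 369 had 4 or more counts but under 4%. By size, 1025 cells with at least 20 counts lay less than 1000 square pixels above the lower size limit and 1082 lay up to 1000 below it.

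**Figure D1:**
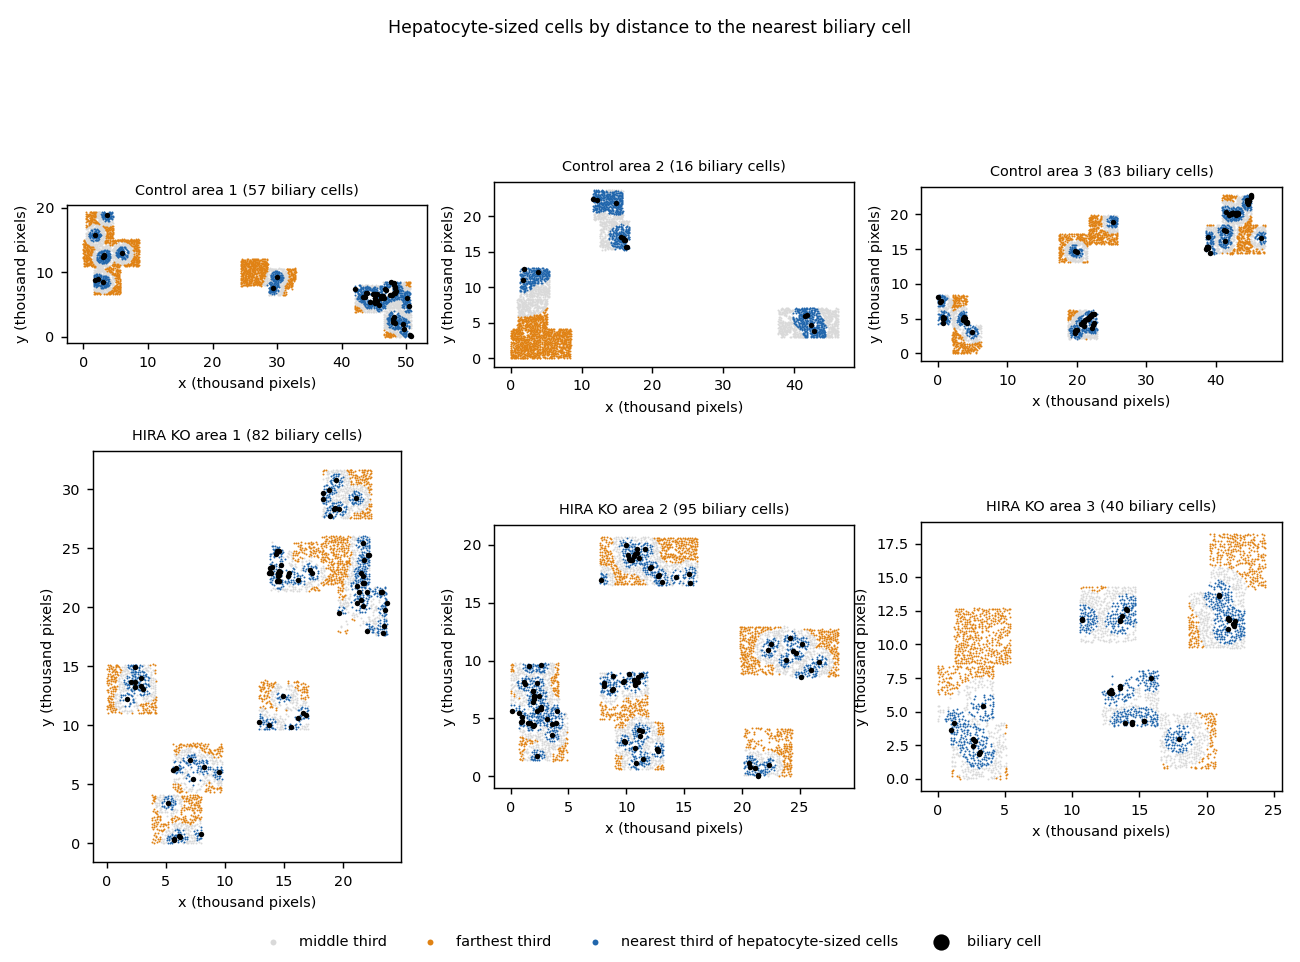
Position of hepatocyte-sized cells and biliary cells in each of the 6 tissue areas, in pixels (axis values times 1000) from the lowest x and y of the area (panels are drawn at different scales). Blue points are near, grey middle and orange far cells, and black points are the 373 biliary cells. The far cells of control area 2 lie together in fields without a biliary cell, and many far cells of HIRA KO area 3 also lie in fields without one, while in control area 3 and HIRA KO areas 1 and 2 every field holds a biliary cell.

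Of 998 genes tested between near and far cells, 4 passed an adjusted p under 0.05 in edgeR's quasi-likelihood test with the area as a block, which is 0.401% of the genes tested. Clu and Spp1, the latter a gene of the rule whose call is counted but not used, were higher in near cells, and Glul and Ldha (lactate dehydrogenase A, which interconverts pyruvate and lactate) were lower. At an unadjusted p under 0.05, 51 genes were higher and 41 lower, 9.22% of those tested in all. The near cells were the higher in all 6 areas for 28 genes (2.81%) and the lower in all 6 for 31 genes (3.11%).

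**Figure D2:**
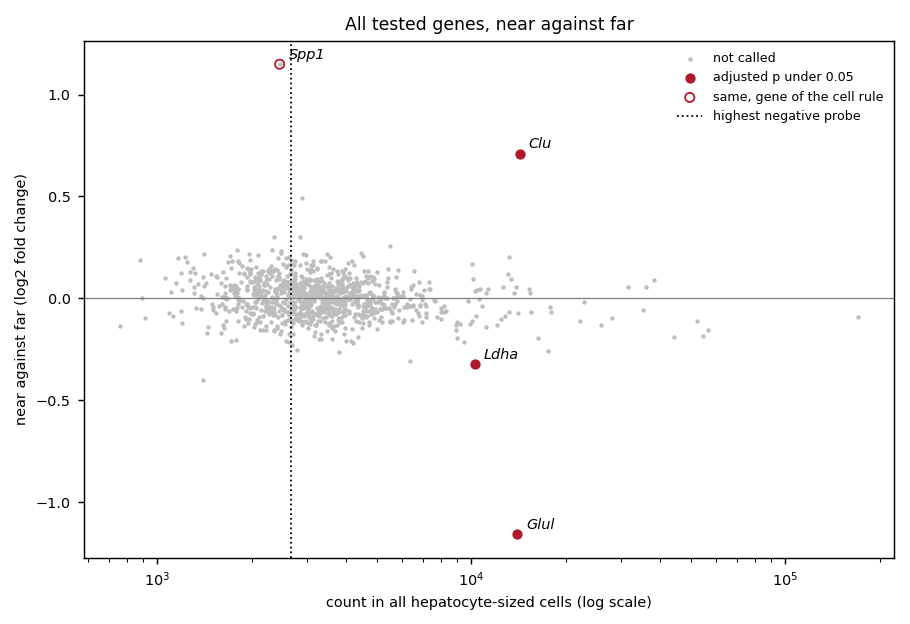
Log2 fold change of near against far cells for the 998 genes tested, against the count of each gene in all hepatocyte-sized cells on a log axis. The 3 filled red points, Clu, Glul and Ldha, passed the adjusted threshold, Spp1 is drawn open because it belongs to the rule that chose the biliary cells, and the dotted line marks the highest negative probe at 2663 counts.

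Spp1 (chromosome 5, 104435118 to 104441050, plus strand, GRCm38), a gene of the rule, is given as a description. Its normalised level in near cells was 1158, 499 and 1003 CPM in the control areas and 1191, 895 and 823 in the HIRA KO areas. In far cells it was 330, 368 and 428 in the controls and 462, 471 and 368 in HIRA KO. Every near value was above every far value. On the log2 scale the near-minus-far difference was 1.78, 0.43 and 1.21 in the controls and 1.35, 0.91 and 1.14 in HIRA KO, smallest in control area 2. These levels rested on 1242 Spp1 counts in all near cells and 571 in all far cells.

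The other genes of the rule differed far less. Krt19, a keratin of bile ducts, was higher in near cells in all 6 areas, by 0.08 to 0.20 on the log2 scale. Anxa4, an annexin of epithelial membranes, was also higher in all 6, by 0.00 to 0.29. Sox9 was higher in 5 areas, with a difference of 0.54 in control area 1 and -0.09 to 0.17 in the other 5. Cdh1, the epithelial adhesion protein E-cadherin that hepatocytes also express, was higher in 5 areas. The fitted log2 values were 0.16 for Krt19, 0.13 for Anxa4, 0.15 for Sox9, 0.16 for Cdh1, 0.07 for Epcam and -0.05 for Krt7, and Krt7 was lower in near cells in 4 of 6 areas. Spp1 was thus the gene of the rule with a difference above 1, while the median of the 7 was 0.15 and that of all genes tested 0.00.

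Clu (chromosome 14, 65968483 to 65981547, plus strand), which the rule did not use, rose near biliary cells. Its normalised level in near cells was 5259, 2237 and 4362 CPM in the control areas and 5882, 5094 and 4636 in the HIRA KO areas. In far cells it was 2533, 2012 and 2405 in the controls and 3407, 2996 and 2994 in HIRA KO. Near cells were higher in all 6 areas, and 5 of the 6 near values lay above every far value, control area 2 being the exception. The log2 fold change was 0.71 (SE 0.09, edgeR adjusted p = 9.85e-06), and by area it ran from 0.15 in control area 2 to 1.05 in control area 1. Among the 13 other biliary genes on the panel, Clu was the only one called. The median of these 13 was 0.03, beside 0.00 for all genes tested.

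Near cells that touched a biliary cell (centres closer than 1.5 times the sum of their radii) numbered 546 of 6856. They held between 12.1% and 41.8% of an area's near Spp1 counts and between 9.1% and 30.3% of its near Clu counts. Among these touching cells Clu ranged from 6595 to 14291 CPM by area. The near cells that did not touch held 4959, 2255 and 3474 CPM of Clu in the controls and 5321, 4736 and 3702 in HIRA KO. The far cells of the same areas held 2631, 2100 and 2433 in the controls and 3436, 2888 and 2711 in HIRA KO. The non-touching near cells were thus above the far cells in all 6 areas, and without the touching cells the log2 fold change was 0.53 for Clu and 0.88 for Spp1.

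The levels were also read by fixed bands of distance, since near and far end at different pixels in each area. In the 545 cells within 200 pixels of a biliary cell, Spp1 averaged 2724 ± 1133 CPM (SD, n = 6 areas). It was 1265 ± 430 at 200 to 400 pixels, 788 ± 143 at 400 to 600, 562 ± 142 at 600 to 1000 and 414 ± 102 at 1000 to 1500. Beyond 1500 pixels it stayed at 411 ± 109 and, past 2500, 376 ± 106 (n = 5 areas). Clu fell over the same bands, from 10276 ± 3002 through 5768 ± 1250, 4451 ± 900 and 3289 ± 1086 to 2742 ± 821 at 1000 to 1500 pixels. It was 2533 ± 514 at 1500 to 2500 pixels and 2500 ± 459 past 2500 (n = 5 areas). Both genes were thus highest next to biliary cells and on average levelled off at about 1000 to 1500 pixels. Single areas differed: from that band on, HIRA KO area 2 went from 582 through 457 to 289 CPM for Spp1. Its Clu went from 3434 through 2652 to 2071. In control area 3 both genes were instead higher past 2500 pixels (523 and 2886) than at 1000 to 1500 (422 and 1811). Sox9 averaged 1194 ± 367 within 200 pixels and 842 ± 203 at 200 to 400, and lay between 672 and 901 in the later bands. Anxa4 averaged 2175 ± 570 and 1960 ± 306 in the first bands and 1508 ± 98.2 at 400 to 600 pixels.

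**Figure D3:**
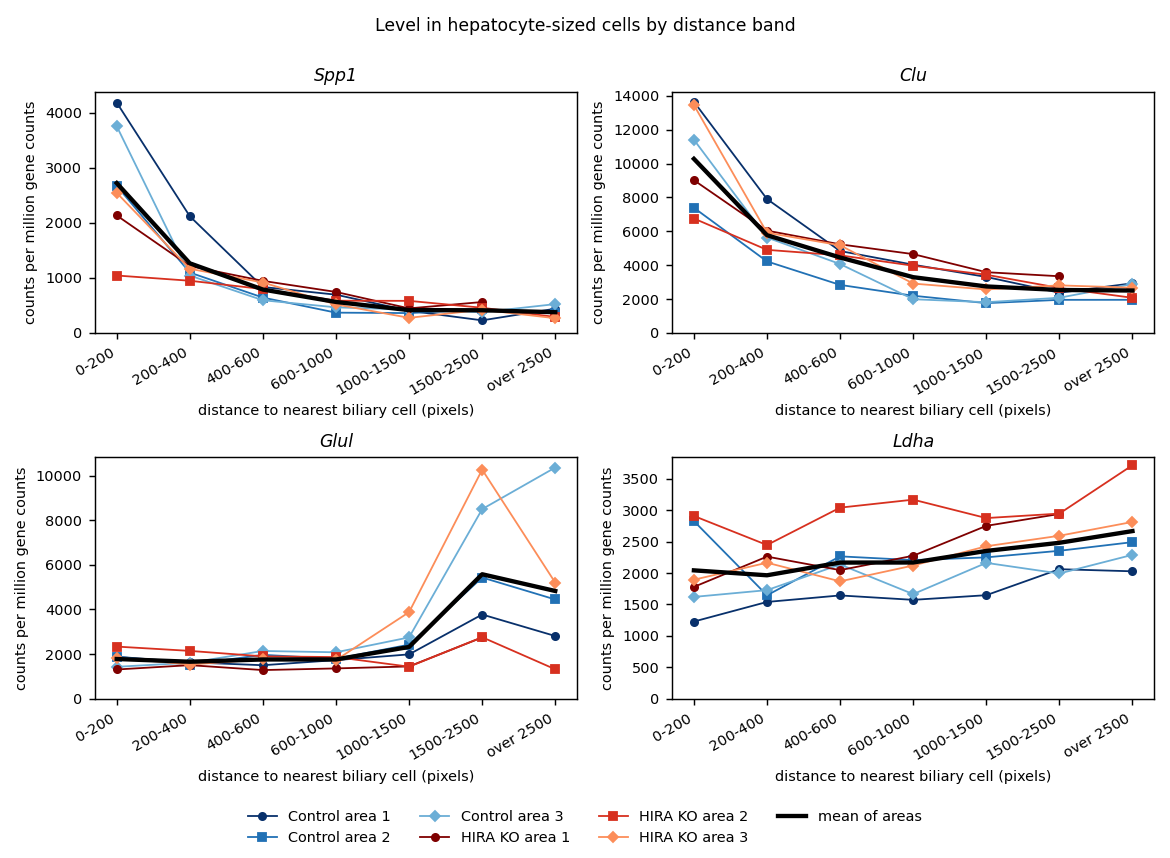
Level of Spp1, Clu, Glul and Ldha (CPM) in hepatocyte-sized cells by band of distance to the nearest biliary cell, with 1 line for each area and a black line for their mean; bands with under 20 cells in an area are left out. Spp1 and Clu fall from the first band on, Glul is flat on average to 1000 pixels and higher at 1500 to 2500 than at 1000 to 1500 pixels in all 6 areas, and Ldha is lowest on average at 200 to 400 pixels.

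As a share of the level inside biliary cells, the near-minus-far difference was 4.34% ± 2.34 for Clu (SD, n = 6 areas) and 2.13% ± 1.18 for Spp1. For the other genes of the rule it was 2.64% ± 1.53 for Krt19, 1.6% ± 1.29 for Anxa4, 1.61% ± 2.55 for Sox9, 2.11% ± 2.80 for Cdh1, 1.37% ± 3.92 for Epcam and -0.61% ± 1.45 for Krt7. Of biliary genes outside the rule, the keratin gene Krt8 was at -0.09% ± 4.21 and the tight junction gene Cldn4 at 0.07% ± 1.82. The level of a rule gene in biliary cells is raised by the choice of those cells, which lowers its share. Whether transcripts of a neighbouring biliary cell were assigned to hepatocyte-sized cells was not tested. Other settings bear on the Clu call. In 30.7% of hepatocyte-sized cells, genes of other cell types, Clu and Spp1 included, exceeded 10% of counts. Without those cells Clu was at 0.20 (edgeR adjusted p = 0.371). With a stricter biliary rule (6 counts and 6%, 70 cells) it was at 0.33 (edgeR adjusted p = 0.634). The stricter rule kept 9, 2 and 24 biliary cells in the control areas and 9, 19 and 7 in the HIRA KO areas. Whether cells beside a biliary cell that it dropped were then classed as far was not tested.

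Glul (chromosome 1, 153899944 to 153909723, plus strand) fell near biliary cells. In near cells it was at 1571, 2045 and 1893 CPM in the control areas and at 1335, 2128 and 1820 in the HIRA KO areas. In far cells it was at 3661, 2770 and 9549 in the controls and at 2232, 2301 and 7824 in HIRA KO. All 6 far values were above all 6 near values, but the size varied widely, with log2 differences of -2.33 in control area 3 and -2.10 in HIRA KO area 3 against -0.11 in HIRA KO area 2. The log2 fold change was -1.16 (SE 0.19, edgeR adjusted p = 0.000803). DESeq2 gave the same size with an adjusted p of 0.214, and the stricter biliary rule gave -0.17 (edgeR adjusted p = 0.879).

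In some areas a few cells held much of the Glul counts of the far class. Cells with at least 4 Glul counts that made up at least 4% of their gene counts are called Glul-high here, and there were 208 of them. The near class held 0, 1 and 0 Glul-high cells in the control areas and 0, 5 and 1 in the HIRA KO areas. The far class held 16, 8 and 33 in the controls and 1, 4 and 38 in HIRA KO. The areas with the largest Glul differences, control area 3 and HIRA KO area 3, were those with the most Glul-high far cells. With the Glul-high cells set aside, Glul in near cells was 1671, 2163 and 1898 CPM in the controls and 1343, 1886 and 1592 in HIRA KO. In far cells it was then 2764, 2501 and 3424 in the controls and 2148, 1717 and 3807 in HIRA KO, so it remained higher in far cells in 5 of 6 areas, HIRA KO area 2 being the exception. By bands, Glul averaged 1654 to 1776 CPM in every band up to 1000 pixels, 2317 ± 927 at 1000 to 1500 pixels and 5580 ± 3159 at 1500 to 2500 (SD, n = 6 areas). Past 2500 pixels it averaged 4828 ± 3444 (n = 5 areas), and in HIRA KO area 2 it was at 1314 there, below the 2333 of the first band.

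Other zonation genes were few on the panel, 3 periportal and 4 pericentral. Of the periportal genes none was called: the log2 fold change was 0.20 for Arg1 (arginase, of the urea cycle), 0.07 for Igf1 and 0.05 for Pigr, which carries immunoglobulin A across epithelium. Arg1 was higher in near cells in 3 areas and lower in 3, and its difference of 1.19 in control area 3 was far above the other 5, which ran from -0.21 to 0.30. Igf1 was higher in all 6 areas. Besides Glul, the pericentral genes were lower in near cells but not called, with -0.16 for Ahr, a ligand-activated transcription factor, and -0.10 for Rnf43, a Wnt pathway inhibitor. The median was -0.15 for the 4 pericentral genes and 0.07 for the 3 periportal genes.

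Ldha (chromosome 7, 46841475 to 46855627, plus strand) was lower near biliary cells. In near cells it was at 1451, 2034 and 1807 CPM in the control areas and at 2137, 2930 and 2300 in the HIRA KO areas. In far cells it was at 2005, 2391 and 2188 in the controls and at 2867, 3164 and 3158 in HIRA KO. Within each area the near value was below the far value, although the ranges of near and far overlapped across areas. The log2 fold change was -0.32 (SE 0.07, edgeR adjusted p = 0.0175), with -0.46 to -0.11 by area. By bands Ldha went from 1965 ± 374 at 200 to 400 pixels to 2669 ± 654 past 2500 pixels. Its call was the least stable of the 4, with an edgeR adjusted p of 0.0526 to 0.106 when area 1 or area 3 of either genotype was left out. The call was also lost with a stricter biliary rule (-0.20, edgeR adjusted p = 0.671), with classes within each field of view (-0.20, edgeR adjusted p = 0.269), with a split at the median distance (edgeR adjusted p = 0.135) and with nuclear transcripts (edgeR adjusted p = 0.117).

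No member of the remaining gene groups passed the adjusted threshold in the main fit, and their values are given as descriptions. Of 12 stress and antioxidant genes, Sod1 (superoxide dismutase) was at -0.26 and Hsp90ab1 (a chaperone) at -0.21, both lower in near cells in all 6 areas, and Gpx1 (glutathione peroxidase) was at -0.19, lower in 4. Another chaperone gene, Hsp90b1, was at 0.10 and higher in near cells in all 6. The median of the 12 was -0.01. Of 12 lipid and sterol genes, Fasn (fatty acid synthase) was at 0.21, while Ppara and Rxra, nuclear receptors of fatty acid oxidation, were at -0.22 and -0.13, each lower in 5 areas; the median was -0.01. Of 10 genes for secreted proteins, Apoe was at -0.19, and the hepatocyte markers Ttr, Gc, Apoa1 and Serpina1a were at -0.09, 0.06, -0.04 and 0.04.

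Of 25 growth factor and receptor genes, 19 were above 0, beside 508 of all 998, with a median of 0.05. Near cells were higher in all 6 areas for 5 of them, beside 2.81% of all genes, and lower in all 6 for Bmp5, a bone morphogenetic protein, at -0.21. Igfbp3, a carrier of insulin-like growth factors, was at 0.30 (edgeR adjusted p = 0.110) and higher in 5 areas. Gdf15, a stress-induced cytokine, and the receptor gene Erbb2 were higher in all 6, at 0.16 and 0.13. Jag1, a Notch ligand that portal tracts express, was at 0.18 and higher in 5 areas, and the median of 13 Notch, YAP and early reprogramming genes was 0.01. Of 18 acute-phase and interferon genes, the chemokine gene Cxcl1 was at 0.22 and the iron-binding protein gene Lcn2 at 0.14, each higher in 5 areas, with a median of 0.02.

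**Figure D4:**
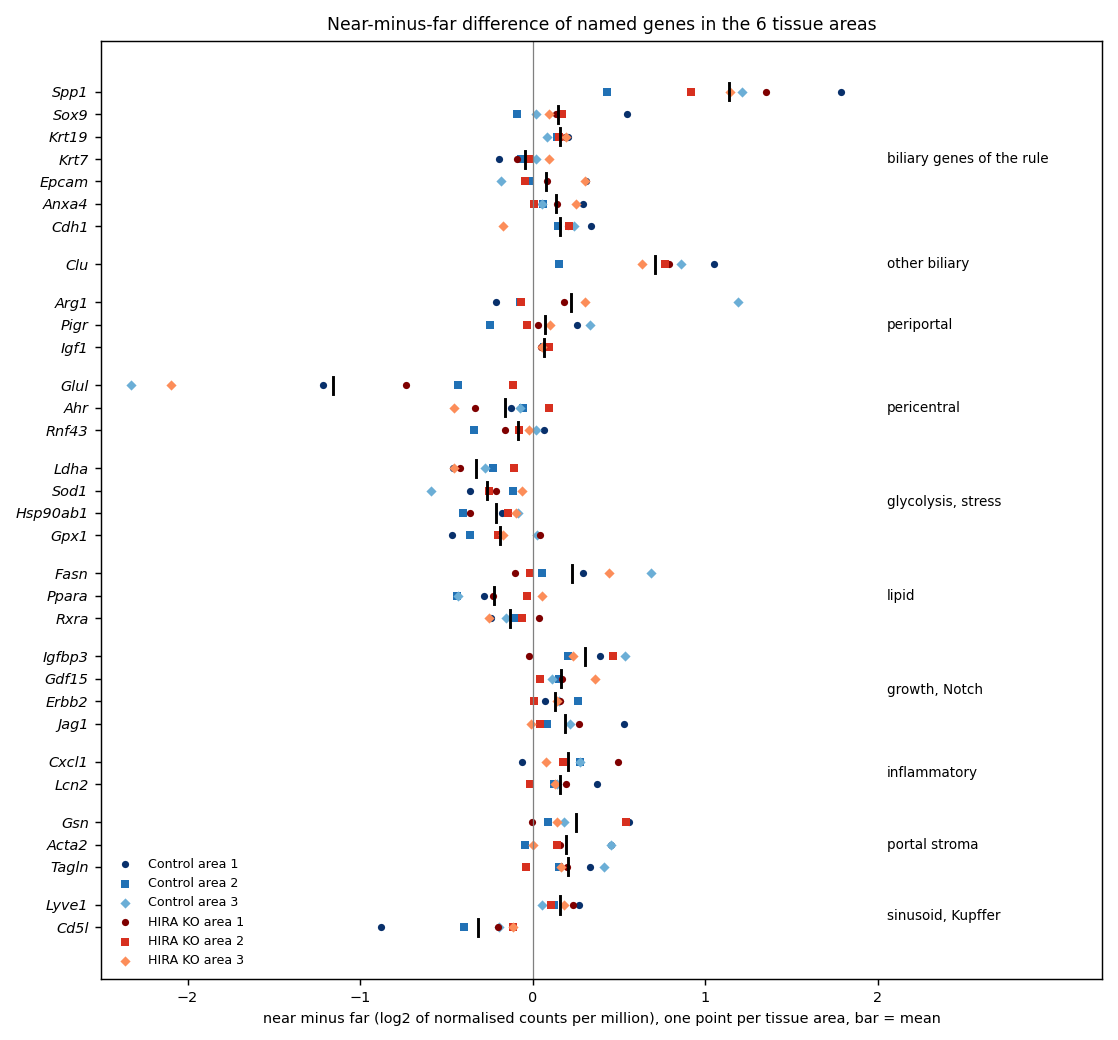
Near-minus-far difference (log2 of normalised CPM) of named genes in each of the 6 tissue areas, with a bar at their mean, grouped by function. Spp1 and Clu lie to the right of 0 and Glul and Ldha to the left in all 6 areas, while most other genes straddle or sit close to 0.

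Genes of other cell types are given beside these results, and of those outside the rule Clu was the only one called in the main fit. The 18 portal stroma genes had a median log2 fold change of 0.11, with 13 above 0; Gsn (gelsolin, which cuts actin filaments) was at 0.26, and the smooth muscle genes Tagln and Acta2 were at 0.19 and 0.18. Their summed share of gene counts was 1.31% to 1.75% in near and 1.34% to 1.61% in far cells, higher near in 5 of 6 areas. The 13 other biliary genes summed to 1.21% to 1.53% in near and 1.03% to 1.23% in far cells, higher near in all 6 areas. Without Clu, the other 12 differed by -0.01 to 0.05 percentage points. The list of 7 large vessel genes also held Clu, and without it the difference ran from -0.05 to 0.02 percentage points. Lyve1, of sinusoidal and lymphatic endothelium, was at 0.17 and higher in all 6 areas, and the Kupffer cell gene Cd5l was at -0.31 and lower in all 6 (edgeR adjusted p = 0.110). The Kupffer list of 6 genes had a median of -0.08 and the lymphoid list of 19 a median of -0.04, with the antibody gene Igha at 0.49 but higher near in 3 areas only. The medians were -0.07 for 6 sinusoidal, 0.01 for 6 stellate cell, 0.03 for 11 antigen-presenting and 0.06 for 4 neutrophil genes. No gene of these lists was at 0 in the near or far cells of any area. Their part in the near-far differences was not tested.

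The share of small cells around a hepatocyte-sized cell is given as a description, because biliary cells were themselves chosen as small, so that the rule favours a higher share around near cells. Of the 20 cells nearest to a near cell, 55.0%, 49.996% and 59.6% were small (under 15000 square pixels) in the control areas and 69.8%, 66.9% and 55.3% in the HIRA KO areas. Around far cells these shares were 44.7%, 42.7% and 53.5% in the controls and 58.7%, 53.9% and 52.9% in HIRA KO. The near value was higher in all 6 areas, by 8.39 ± 3.85 percentage points (SD, n = 6). None of the 22 measures computed passed adjustment (exact paired permutation tests, two-sided). With 6 areas this paired permutation test cannot give a p under 0.03125. The 3 measures with an unadjusted p under 0.05 had an adjusted p of 0.229. They were this share of small cells, which the rule favours, and the summed shares of the other biliary genes and of the large vessel genes. Both gene lists held Clu, and without Clu neither was higher near in all 6 areas. Passing would have needed many measures at that floor together, so the lack of a call does not show that near and far cells were alike. The median gene count per cell was 188 ± 51.8 in near and 190 ± 48.5 in far cells. The median cell area was 24599 ± 1204 and 25399 ± 1715 square pixels, smaller near in 5 of 6 areas (exact p = 0.0938, adjusted 0.295). The share of negative probe counts was 0.480% near and 0.466% far. The median PanCK stain intensity, which marks epithelial keratins, was 2813 ± 466 near and 2925 ± 557 far and was lower near in 4 of 6 areas (exact p = 0.125, adjusted 0.306).

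**Figure D5:**
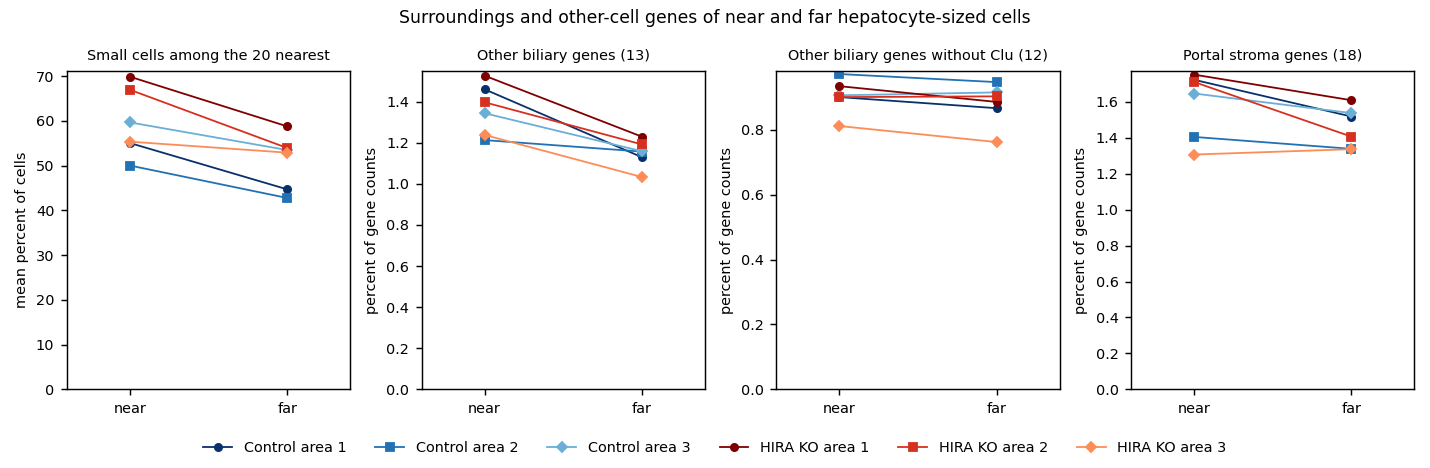
Paired near and far values in each of the 6 areas: share of small cells among the 20 nearest cells, and summed share of gene counts for the 13 other biliary genes, for the same list without Clu (12 genes), and for 18 portal stroma genes; all axes start at 0. Small cells and the 13 biliary genes are higher near in all 6 areas, and the difference of the biliary list is between -0.01 and 0.05 percentage points once Clu is left out.

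The same near-minus-far differences were then compared between genotypes, although near and far ended at different distances by area. None of 998 genes passed the adjusted threshold in edgeR (0%), and 38 had an unadjusted p under 0.05 (3.81%). The 3 HIRA KO areas were all above the 3 control areas for 41 genes (4.11%) and all below for 45 (4.51%). The difference averaged 1.14 ± 0.68 in control and 1.14 ± 0.22 in HIRA KO areas for Spp1 (log2, SD, n = 3 areas each) and 0.69 ± 0.47 and 0.73 ± 0.08 for Clu. It averaged -1.33 ± 0.95 and -0.98 ± 1.02 for Glul and -0.32 ± 0.12 and -0.33 ± 0.19 for Ldha. The control and HIRA KO areas overlapped for all 4 genes. None of the 22 cell measures separated the genotypes in its near-minus-far difference, and an exact permutation test of 3 against 3 areas cannot give a p under 0.1. With this spread the result does not show that the genotypes were alike.

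Within the near cells alone, 2 of 998 genes differed between genotypes (0.2%), and 74 had an unadjusted p under 0.05 (7.41%). The median distance of the near cells was 630, 975 and 541 pixels in the control areas and 401, 414 and 685 in the HIRA KO areas. The genotypes were thus not matched for distance in this test. The HIRA KO areas were all above the controls for 67 genes (6.71%) and all below for 63 (6.31%). Igkc (chromosome 6, 70726435 to 70726966), the kappa light chain of antibodies, was at 885, 823 and 1245 CPM in the control areas and at 1690, 1893 and 1761 in the HIRA KO areas. Igha (chromosome 12, 113254830 to 113260236), the heavy chain of immunoglobulin A, was at 358, 417 and 398 in the controls and at 970, 2190 and 532 in HIRA KO. Both were higher in all 3 HIRA KO areas, and for Igha HIRA KO area 2 was highest. The log2 fold change was 0.88 for Igkc (SE 0.16, edgeR adjusted p = 0.0183) and 1.67 for Igha (SE 0.33, edgeR adjusted p = 0.0310). These are genes of antibody-producing B-lineage cells and not of hepatocytes, and the lymphoid list summed to 1.43% to 1.47% of gene counts in the control near cells and to 1.47% to 1.63% in HIRA KO. DESeq2 and limma-voom called Igkc but not Igha (limma-voom adjusted p = 0.167 for Igha). In edgeR neither call held without cells touching a biliary cell (edgeR adjusted p = 0.0518 for both) or without cells over 10% other markers, where Igkc was at 0.53 (edgeR adjusted p = 0.266) and Igha at 0.48 (edgeR adjusted p = 0.352). No gene was called without control area 1, without control area 2 or without HIRA KO area 2, which took Igha to 0.92, and 20 were called with the slide row as a block.

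In the far cells no gene was called between genotypes in edgeR (0%), with 67 at an unadjusted p under 0.05 (6.71%), whereas DESeq2 called 6. The median distance of the far cells was 2483, 9229 and 2311 pixels in the controls and 1575, 1737 and 3774 in HIRA KO. The HIRA KO areas were all above the controls for 76 genes (7.62%) and all below for 50 (5.01%). Igkc there was at 1830, 890 and 811 CPM in the controls and at 3302, 984 and 1649 in HIRA KO, so the groups overlapped. Igha was at 453, 408 and 409 in the controls and at 709, 579 and 740 in HIRA KO (log2 0.66, edgeR adjusted p = 0.183). Ldha was higher in all 3 HIRA KO areas in both classes without being called, at 1764 ± 294 against 2456 ± 419 in near cells (edgeR adjusted p = 0.495) and 2195 ± 193 against 3063 ± 170 in far cells (edgeR adjusted p = 0.553; SD, n = 3 areas each).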

How the data were processed

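The authors imaged formalin-fixed median lobe sections of 5 µm with the CosMx platform and deposited raw counts, decoded transcripts per gene target and segmented cell with no normalization, and, per the file headers, mean stain intensity, area and centre of each cell. Counts equalled the lines of the deposited transcript table in every cell, and 6.89% of transcripts lay outside cells. Software versions of the platform are not given in the sources used here. The cell outline table was not used. The members, gene lists and comparisons were chosen with earlier results of these data known.

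Counts of near and far cells were summed per tissue area (areas from field of view numbers, whose genotype the labels give) and tested with edgeR 4.0.16 (R 4.3.3; filterByExpr, TMM, quasi-likelihood F test, Benjamini-Hochberg adjustment at 0.05 over 998 genes). The area was a block for near against far; genotype tests used 3 against 3 areas. Levels by area are TMM-normalised counts per 1000000 (CPM) with log2 differences at a prior count of 2; levels by band and in touching or Glul-high subsets are plain CPM. Cell measures were compared over areas by exact permutation tests (scipy 1.17.1). The edgeR fit and the permutation test were tested on simulated data. Named were called genes with the same sign in all areas and a count above the highest negative probe, up to 3 such members of each list by lowest p (those under 0.05 and all zonation genes are given), the 7 rule genes and the hepatocyte markers of the study. Bmp5 and Hsp90b1 were added after their values were seen, and further biliary genes are given only as shares of the level in biliary cells. 1 gene is not reported here. Gene coordinates are GENCODE vM21 (GRCm38), since the files hold none. Alternatives were DESeq2 1.42.0, limma-voom 3.58.1, library size only, no filter, no area block, the slide row as a block, other ways to cut distance, cells or biliary cells, nuclear transcripts, and leaving out each area. Fixed distances (near up to 600, far from 1200 pixels) and leaving out fields without a biliary cell were added after seeing the data.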

Additional observations from a re-analysis of the deposited data

How the results depend on the processing

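For near against far (4 genes, Spp1 of the rule included), 1 was called without the area block, namely Spp1, a gene of the rule. Clu was then at 0.75, Glul at -1.38 and Ldha at -0.32, none of them called. With the nearest and farthest of 4 classes 9 were called, with 7 at fixed distances and 7 without fields that hold no biliary cell. The last pair of settings was chosen after seeing the data. Leaving out 1 area gave 3 to 4. Some settings called named genes that the main fit did not (edgeR adjusted p). Igfbp3 was called with 4 classes (0.0243), stricter biliary cells (0.0436) and without HIRA KO area 1 (0.0343). Fasn (0.00116) and Igha (0.0155) were called with nuclear transcripts. Sod1 was called with the biliary cell in the same field (0.000491). Hsp90ab1 was called without cells over 10% other markers (0.0129), and Gsn with 4 classes (0.0487). Acta2 and Cd5l were called at fixed distances. For genotype in near cells (2 genes), DESeq2 called 9, limma-voom 1, the slide row as a block 20, nuclear transcripts 6, classes within each field of view 1, and 4 classes, the removal of touching cells and fixed distances 0 each, with 0 to 3 when 1 area was left out. For genotype in far cells (0 genes), DESeq2 called 6, the slide row as a block 4 and stricter biliary cells 1. Scaling by library size only shifted the median of all genes by -0.12 in near and -0.11 in far cells for genotype, and by 0.02 for near against far. Several log2 fold changes changed sign, among them Igha (0.49), Arg1 (0.20), Tagln (0.19) and Acta2 (0.18). With nuclear transcripts these were Acta2 -0.0415, Apoa1 0.0304, Krt7 0.0650, Tagln -0.0269 and Ttr 0.0639. Without cells over 10% other markers they were Acta2 -0.0105, Anxa4 -0.0387, Epcam -0.172 and Igha -0.0426, and the Kupffer share differed by 0.0136 percentage points. With stricter biliary cells they were Apoa1 0.00521, Arg1 -0.0566, Epcam -0.0220, Gc -0.137, Igf1 -0.0769, Krt19 -0.0107, Krt7 0.00115, Pigr -0.135 and Serpina1a -0.0428. At fixed distances they were Apoa1 0.0264, Krt7 0.0323 and Ttr 0.0268, with 4 classes Krt7 0.0328, and with classes within each field Ttr 0.0297. With 1 area left out, Gc ranged from -0.00865 to 0.147, Igha from -0.0484 to 0.718 (lowest without HIRA KO area 2) and Serpina1a from -0.0259 to 0.0726. Gene counts per cell (-1.75 near minus far) were at 3.42 with stricter biliary cells and -7.75 at fixed distances. Cell area (-800) was at -808 with classes within each field, -1150 with the biliary cell in the same field, -1374 at fixed distances and -1198 without fields that hold none. Small cells among the nearest 20 (8.39 percentage points) were at 5.67 with a split of each area at the median distance and at 7.47 to 9.58 with 1 area left out. The distance to the nearest Glul-high cell (2627 pixels) was at -8.76 with classes within each field. Of the 22 cell measures, 3 had 1 sign in all areas, against 5 with the biliary cell in the same field, 1 without cells over 10% other markers, 1 with stricter biliary cells, 7 at fixed distances and 3 to 6 with 1 area left out. The genotypes separated in 0 measures, against 1 under classes within each field, 4 classes, the same field, removal of cells over 10% other markers or of fields without a biliary cell, 2 under stricter biliary cells and fixed distances, and 1 to 5 with 1 area left out. The cause of these changes was not tested. The labels give the genotypes no shared replicate number, and the pairing of areas tried was that by slide row, the block above. Depth limits the low genes, since 334 of the 1000 did not exceed the highest negative probe.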
